A study of Mus musculus with 28 samples.

Results

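H3K27me3 is trimethylation of lysine 27 on histone H3, the mark that Polycomb repressive complex 2 places on promoters of silent developmental genes. Its promoter level was compared between ovarian (XX) and testicular (XY) primordial germ cells of E13.5 mouse embryos (E, days of embryonic development). The members are the promoters of all genes placed on the autosomes, 20424 of the 22138 promoters in the deposited table, each a window of 1 kb on either side of the transcription start. Each had 1 H3K27me3 ChIP-seq library from XX Het, XX KO, XY Het and XY KO germ cells, so 2 libraries per sex, compared within genotype. Het is Setdb1 flox/- and KO is Setdb1 delta/-, and every one of these 4 ChIP libraries therefore carried at least 1 inactive allele of Setdb1, the gene of a methyltransferase for H3 lysine 9. No wild-type H3K27me3 library was used, and the labels name no Cre driver. RNA of the same genes came from 4 XX Het and 4 XY Het RNA-seq libraries, in each sex 2 of genotype Het1 (delta/+) and 2 of Het2 (flox/-). The KO RNA groups had 2 libraries per sex. Cells were sorted for the surface antigen SSEA1, and the labels do not say whether libraries came from single embryos or pools, so p-values measure the spread between libraries, which may be technical.

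At this stage XX germ cells enter meiosis under retinoic acid and BMP signals from the ovary, while XY germ cells stop dividing and pass through a phase of Nodal signalling. BMP signals act through SMAD proteins on targets such as the Id genes, and Nodal acts through its co-receptor Cripto (gene Tdgf1) and induces its own antagonists Lefty1 and Lefty2. In many cell types H3K27me3 is high at silent CpG-rich promoters and low at active ones.

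The promoters of 4 genes on which the results turn are shown first, as RefSeq gives them for the assembly GRCm38.p6, from 250 bases before to 50 bases after the annotated start, 5′ to 3′ on the gene's strand. They lie inside the region measured around each start, but the deposited values refer to mm9. Capitals mark the dinucleotide CG, which reads the same on both strands. Phlda2 (chr7:143502475-143502774, minus strand) and Fgf11 (chr11:69802231-69802530, minus strand) carried less H3K27me3 in XX cells. Tmem63a (chr1:180942268-180942567, plus strand) and Wnt3 (chr11:103773925-103774224, plus strand) carried relatively more.
Phlda2: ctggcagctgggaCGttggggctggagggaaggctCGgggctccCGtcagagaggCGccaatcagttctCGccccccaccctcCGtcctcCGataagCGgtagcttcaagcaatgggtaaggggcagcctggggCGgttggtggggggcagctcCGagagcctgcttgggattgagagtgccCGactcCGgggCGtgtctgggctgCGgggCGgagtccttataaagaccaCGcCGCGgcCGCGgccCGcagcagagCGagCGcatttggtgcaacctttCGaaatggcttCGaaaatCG
Fgf11: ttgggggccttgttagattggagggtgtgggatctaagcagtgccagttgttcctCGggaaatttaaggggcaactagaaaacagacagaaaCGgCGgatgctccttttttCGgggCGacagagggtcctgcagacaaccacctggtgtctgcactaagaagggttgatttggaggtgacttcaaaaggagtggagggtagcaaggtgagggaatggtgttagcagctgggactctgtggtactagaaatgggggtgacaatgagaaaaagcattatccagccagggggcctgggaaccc
Tmem63a: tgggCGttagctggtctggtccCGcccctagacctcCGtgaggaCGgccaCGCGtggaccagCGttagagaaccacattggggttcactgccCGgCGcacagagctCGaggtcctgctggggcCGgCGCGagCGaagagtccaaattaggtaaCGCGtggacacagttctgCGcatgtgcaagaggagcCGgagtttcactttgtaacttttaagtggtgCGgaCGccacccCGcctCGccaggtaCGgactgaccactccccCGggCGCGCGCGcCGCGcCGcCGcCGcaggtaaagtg
Wnt3: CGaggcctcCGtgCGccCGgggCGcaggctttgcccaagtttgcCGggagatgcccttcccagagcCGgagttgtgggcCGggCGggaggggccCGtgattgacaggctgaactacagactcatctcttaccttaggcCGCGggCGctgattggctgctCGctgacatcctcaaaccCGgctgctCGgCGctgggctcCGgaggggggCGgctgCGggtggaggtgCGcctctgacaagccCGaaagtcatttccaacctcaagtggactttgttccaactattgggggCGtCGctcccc
The windows of Phlda2, Tmem63a and Wnt3 held 26, 33 and 24 CG dinucleotides, numbers reached by 16.4%, 7.89% and 19.6% of 22862 RefSeq promoters of the same length. Fgf11 held 5, a number that 60.3% of these promoters reach.

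The label of the cells was checked on RNA. The germ cell gene Ddx4 stood at 214.80 to 318.82 RPKM (reads per kilobase of feature, scaled to library size) in the 8 Het libraries and at 1.28 RPKM in the 1 library of XY gonadal soma (the SSEA1-negative cells), which came from wild-type C57BL/6 embryos and not from the Setdb1 cross. The summed RNA of 10 germ cell markers was 1540 to 1860 RPKM in XX and 1890 to 2470 in XY libraries. The 11 Sertoli cell markers summed to 77.3 to 96.7 RPKM in XX and 104 to 178 in XY libraries, against 937 in soma, and the Sertoli gene Amh was at 0.00 to 0.49 RPKM in XX and 1.26 to 25.10 in XY libraries. The 7 pregranulosa cell markers summed to 10.3 to 19.8 RPKM over the 8 Het libraries, with XY libraries inside the XX range. The 6 Leydig markers summed to at most 12.3 and the 8 stromal markers to at most 41.1 RPKM in any Het library, with Col1a1 at 0.68 to 7.14. In soma these 2 sums were 768 and 1820 RPKM. The 6 endothelial markers summed to 18.6 to 67.6 RPKM in the Het libraries, a range that takes in the 42.2 RPKM of soma. Macrophage and blood markers reached 260 RPKM in 1 XX library and at most 15.2 in any XY library. Soma RNA is available from XY gonads only, and the part of other cells in the differences below was not tested. In bulk samples a smaller share of cells carrying the mark, or transcribing a gene, cannot be told apart from less mark or RNA per cell.

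Nearly all promoters marked in XX cells were also marked in XY cells, but not the reverse, and marked promoters stood lower in XX cells as a body. Of the autosomal promoters, 898 were at RPKM 1 or more in both XX libraries and 2056 in both XY libraries. All 4 libraries shared 882 of them, 98.2% of the XX list and 42.9% of the XY list. Of the 1000 promoters with the highest mean in XX cells, 822 were among the 1000 highest in XY cells. Across all autosomal promoters, Pearson's r between log2 values was 0.894 for XX Het with XX KO and 0.926 for XY Het with XY KO, and the 4 XX with XY pairs lay between 0.883 and 0.921. The XX pair was not closer than the XX Het with XY Het pair (0.921) by this measure, which is a description across promoters that share background and depth.

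The direction of the sex difference depended on how marked a promoter was. Promoters with a mean of 0.1 to 0.2 RPKM, where little mark is measured, were higher in XX cells, with median log2 differences of 0.23 in the Het pair and 0.20 in the KO pair. At 0.2 to 0.4 RPKM the medians were 0.07 and 0.01. At 1 to 1.5 RPKM they were -0.26 and -0.52, and at 1.5 to 2 RPKM -0.24 and -0.51. The ratio of the 99th percentile to the median RPKM was 5.59 in XX Het and 5.40 in XX KO, against 7.38 in XY Het and 7.75 in XY KO. The plot by level of the mark shows this slope. A sex difference in the mark over marked promoters and a difference in how well the mark was enriched over background cannot be told apart in these libraries.

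**Figure D1:**
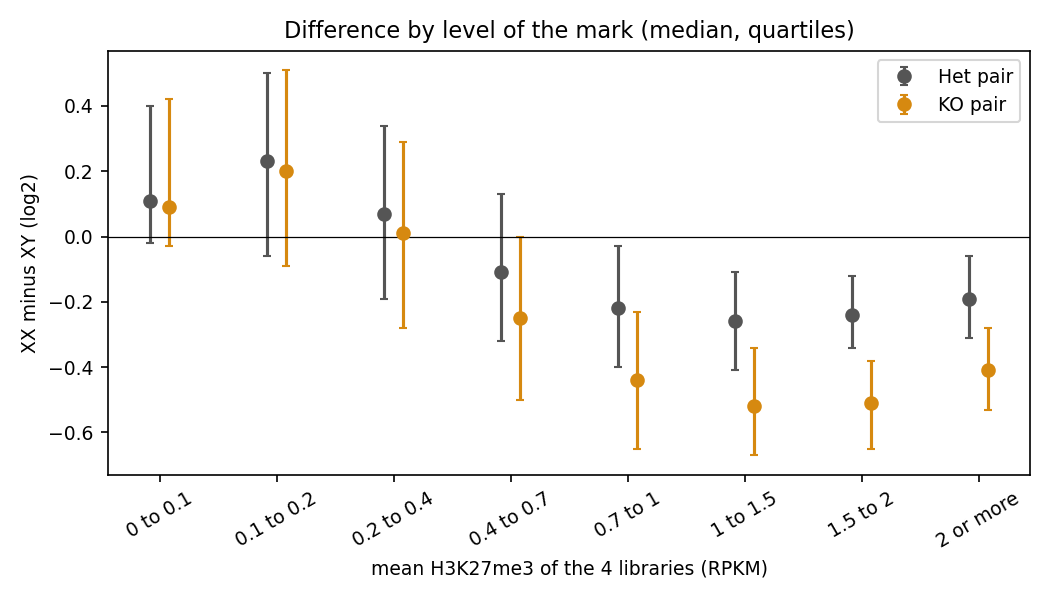
Median XX minus XY difference of promoter H3K27me3 (y axis, log2 of RPKM + 0.1, whiskers are quartiles over promoters) for autosomal promoters grouped by their mean RPKM over the 4 libraries (x axis). Both genotype pairs are above 0 in the group at 0.1 to 0.2 RPKM (0.23 Het, 0.20 KO) and below 0 in the group at 1 to 1.5 RPKM (-0.26 Het, -0.52 KO).

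The deposited RPKM were tested first, at the 2216 autosomal promoters with RPKM 1 or more in at least 2 of the 4 libraries. By limma on log2(RPKM + 0.1) with genotype as a block and a Benjamini-Hochberg adjusted p under 0.05, 486 promoters (21.9%) were lower in XX cells and 1 (0.0451%) was higher. Of the 2216, 1923 were lower in XX in both genotypes, 19 were higher in both, and the rest changed sign or were equal. The median difference over all 2216 was -0.39 (log2), a shift of the promoters as a body. The filter was reached in both XY libraries by 2056 promoters and in both XX libraries by 898. It thus took in more promoters through XY cells, and these counts and this median are in part set by it. Promoters at 1 to 1.5 RPKM by the mean of all 4 libraries also had negative medians (-0.26 in the Het pair, -0.52 in the KO pair). Without either XY library, or without the XX KO library, 0 promoters passed in either direction, and without the XX Het library 1323 were lower, in each case without the genotype term.
A 2-fold difference in the same direction in both genotypes, with no test, was met by 2 promoters (0.0903%), Pwwp2b and Fgf11, both lower in XX, and by 0 in the other direction. Both promoters passed the filter through XY cells alone, and the rule used deposited RPKM with the median shift of -0.39. The direction of this count is therefore in part set by the filter and the shift.

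Promoters were therefore also tested relative to the shift, with each library centred on its median over the autosomal promoters tested. Then 23 promoters (1.04%) stood above the shift in XX cells and 17 (0.767%) below it. All 40 differed from the median in the same direction in both genotypes. At the 17, both XY libraries were above both XX libraries in deposited RPKM. At the 23 the deposited values separated less, since both XX libraries were above both XY libraries at 9 of them. As deposited, 1923 of all 2216 promoters were lower in XX in both genotypes and 19 higher, so the shift in part sets these counts. Of the 17 promoters, 12 passed the RPKM filter through XY cells alone, and of the 23, 3 passed through XX cells alone. The calls rest on few libraries: with centring, leaving out the XY Het library gave 5 above and 1 below, the XY KO library 13 and 2, the XX Het library 2 and 3, and the XX KO library 0 and 0, each without the genotype term. With all libraries and no genotype term the counts were 4 and 3.

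A lower filter, RPKM 0.5 or more in at least 2 libraries, was added after the values were seen, since the promoter of Id1 and others marked in part failed the first. It took in 6283 autosomal promoters, of which 85 (1.35%) were above the shift in XX and 117 (1.86%) below it, and 37 of the 40 promoters called before were among them. Of the 85, 20 passed the filter in 1 sex only and 56 had both XX libraries above both XY libraries in deposited RPKM. Of the 117, 13 passed in 1 sex only and 116 had both XY libraries above both XX libraries. As deposited, 4371 of all 6283 promoters were lower in XX in both genotypes and 287 higher. The share of all 6283 without overlap was not counted, so these numbers are not a result about the called promoters. In this fit, as in the first fit of deposited RPKM, limma gave all promoters of like level the same spread. The p of a promoter therefore does not show its own disagreement between genotypes. The values of the Het and KO pairs, in that order, are given for the genes described outside the lists. Unless stated otherwise, the differences of single genes that follow are relative to the shift in this fit, which was -0.31 (median, log2). Apart from Pwwp2b and Fgf11, the genes outside the lists were chosen after their values were seen.

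**Figure D2:**
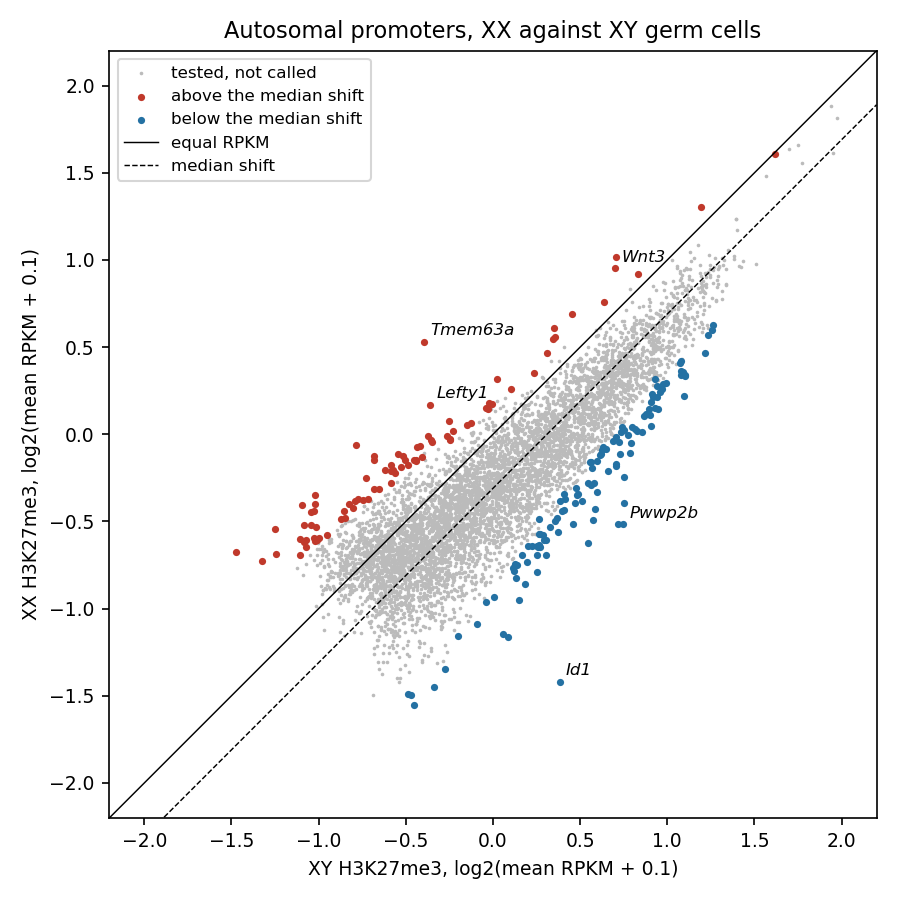
Mean H3K27me3 of the 2 XX libraries (y axis) against that of the 2 XY libraries (x axis), both as log2(mean RPKM + 0.1), at the 6283 autosomal promoters of the wider filter. The dashed line is the median shift of -0.31. Most promoters lie under the line of equal RPKM, and Tmem63a, Lefty1 and Id1 lie far from the dashed line.

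Among promoters with less H3K27me3 in XX cells is that of Id1, which encodes an inhibitor of DNA binding induced by BMP signals. Its promoter had 0.27 RPKM in XX Het, 0.28 in XX KO, 1.41 in XY Het and 1.00 in XY KO. The XX values are at the level of the median autosomal promoter (0.26 to 0.29 RPKM in the 4 libraries), and the groups did not overlap. The difference relative to the shift was -1.48, with -1.82 in the Het pair and -1.15 in the KO pair. It is given as a description with no p, since Id1 passed the wider filter through XY cells alone and that filter was added with its values known. Id1 RNA was 106.32, 80.13, 125.59 and 60.09 RPKM in the XX Het libraries and 8.52, 5.91, 10.06 and 4.40 in the XY Het libraries, which differed by 3.52 on the log2 scale (SE 0.27, limma adjusted p = 3.14e-06). The neighbours of Id1 in the order of GRCm38.p6 did not pass the test of the mark, with Rem1 at -0.15 and Cox4i2 at -0.26, while H13, Mcts2, Bcl2l1 and Tpx2 had 0.33 RPKM or less in each library. Id2 and Id3, of the same gene family, were under the filter. Id2 had 0.22 and 0.16 RPKM in XX and 0.60 and 0.47 in XY cells.

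Pwwp2b, which encodes a PWWP domain protein, had 0.68 and 0.52 RPKM in XX Het and KO, against 1.67 and 1.49 in XY Het and KO. In deposited RPKM its log2 difference was -1.27 (adjusted p = 2.37e-05 by limma), and relative to the shift -0.97 in the Het pair and -0.96 in the KO pair. Pwwp2b RNA was 8.05 to 9.78 RPKM in the 4 XX Het libraries and 0.47 to 1.34 in the 4 XY Het libraries (log2 difference 2.54, SE 0.19, adjusted p = 2.6e-06 by limma). Fgf11, of the intracellular fibroblast growth factor homologues, had 0.63 and 0.47 RPKM in XX and 1.43 and 1.29 in XY cells, with -0.87 and -0.90 in the 2 pairs (adjusted p = 1.14e-05 by limma). Its RNA was 5.21, 8.05, 16.66 and 3.07 RPKM in XX Het and 0.68 to 1.30 in XY Het. For both genes neither mark nor RNA overlapped between the sexes, and at the filter of RPKM 1 both passed through XY cells alone.

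Phlda2 is an imprinted gene known for limiting placental growth. Its promoter had 0.59 and 0.60 RPKM in XX Het and KO, 1.79 in XY Het and 1.30 in XY KO, or -0.92 relative to the shift (SE 0.16, limma adjusted p = 5.29e-07), which was larger in the Het pair (-1.25) than in the KO pair (-0.59). Phlda2 RNA was 245.28, 234.73, 80.14 and 243.88 RPKM in XX Het and 3.04, 0.86, 1.55 and 1.65 in XY Het, which differed by 6.11 on the log2 scale (SE 0.34, limma adjusted p = 1.25e-07). The lowest XX value was in Het2 replicate 1. The nearest gene, Slc22a18, also had more RNA in XX Het (8.22 ± 1.35 RPKM, SD, n = 4, against 0.35 ± 0.404, adjusted p = 3.5e-06 by limma), but its promoter did not pass for the mark (-0.19, adjusted p = 0.718). The next gene Cdkn1c, a cell cycle inhibitor, did not pass for the mark either (-0.46, adjusted p = 0.202). On the other side of Phlda2, Nap1l4 had 0.10 to 0.15 RPKM of the mark in the 4 libraries.

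The 6 further genes that follow were picked for a promoter below the shift and more RNA in XX cells, while of all 117 promoters below the shift 37 had more RNA in XX, 1 less, 48 RNA that did not pass and 31 RNA that was not tested. Notch1, a receptor, had 1.21 and 0.61 RPKM in XX and 1.94 and 1.41 in XY (-0.56, adjusted p = 0.00174 by limma, pairs -0.44 and -0.68) with RNA of 6.81 to 11.84 against 1.08 to 3.21 RPKM. Ovol1, a zinc finger factor, had 1.22 and 0.65 against 1.83 and 1.71 RPKM of the mark (-0.61, pairs -0.35 and -0.88), with RNA of 2.61 ± 0.513 against 0.38 ± 0.163 RPKM (SD, n = 4). At the filter of RPKM 1 with centring, Ovol1 moved from -0.53 to -0.25 without the XX KO library and to -0.82 without XX Het. Notch1 moved from -0.48 to -0.16 without XX KO, -0.79 without XX Het and -0.27 without XY Het, and neither gene passed without any 1 of the 4 libraries, in fits with no genotype term. Ccnd1, which encodes cyclin D1, had 0.87 and 0.58 against 1.58 and 1.21 RPKM of the mark (-0.57, adjusted p = 0.00631 by limma, pairs -0.59 and -0.55), with RNA of 77.0 against 25.3 RPKM. Crabp2, which encodes a retinoic acid binding protein, had 0.78 and 0.31 against 1.05 and 1.09 RPKM (-0.66), but the difference was -0.19 in the Het pair and -1.14 in the KO pair. Osbp2, of an oxysterol binding family, was at -0.63 (pairs -0.72 and -0.55) with RNA of 5.50 against 0.193 RPKM. Mical1, which encodes an actin oxidase, was at -0.78 (pairs -0.82 and -0.75) with RNA of 10.2 against 1.71 RPKM, and passed the filter through XY cells alone. In Notch1, Ovol1, Ccnd1, Osbp2 and Mical1 both XX libraries were below both XY libraries, as at 116 of the 117 promoters below the shift. As deposited, 4371 of the 6283 promoters tested were lower in XX cells in both genotypes.

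The promoters of 3 developmental regulators kept the mark in XX cells while their RNA was much higher there. Cdx2, a caudal type homeobox gene, had 1.47 and 1.00 RPKM of H3K27me3 in XX Het and KO against 2.04 and 1.98 in XY, a difference of -0.38 (adjusted p = 0.0308 by limma, pairs -0.24 and -0.51). Its RNA was 26.70 to 32.57 RPKM in XX Het and 0.00 to 0.24 in XY Het (log2 difference 4.75, adjusted p = 4.54e-10 by limma). Gata2, a zinc finger factor, had 1.11 and 0.74 against 1.64 and 1.49 RPKM (-0.42, adjusted p = 0.0413, pairs -0.33 and -0.51), with RNA of 58.45 to 71.32 against 1.82 to 2.80 RPKM. Hand1 had 1.38 and 1.19 against 1.99 and 2.46 RPKM (-0.45, adjusted p = 0.00347, pairs -0.30 and -0.59), with RNA of 2.57 to 10.81 against 0.00 to 0.12 RPKM. All 3 stayed at 0.74 RPKM or more in each XX library, above the 0.26 to 0.29 RPKM of the median promoter. After quantile normalization Gata2 (adjusted p = 0.115) and Cdx2 (adjusted p = 0.0799) no longer passed. At the filter of RPKM 1 with centring none of the 3 passed (adjusted p = 0.195 for Cdx2 and Gata2 and 0.0808 for Hand1).

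On the other side of the shift the largest difference in this fit was at Tmem63a, which encodes a mechanically gated ion channel. It was the promoter called higher in XX in deposited RPKM, with 1.54 in XX Het, 1.16 in XX KO, 0.46 in XY Het and 0.86 in XY KO. It passed the filter of RPKM 1, used for that call, through XX cells alone, so its p there depends on the filter. The log2 difference was 0.97 as deposited (adjusted p = 0.00492 by limma) and 1.27 relative to the shift (SE 0.17), with 1.76 in the Het pair and 0.78 in the KO pair. As deposited it was 0.57 without the XY Het library, 1.37 without XY KO and 1.16 without XX KO, of which none passed (limma adjusted p = 0.432, 0.4 and 0.132). Tmem63a RNA was 0.47 to 1.14 RPKM in XX Het and 11.85 to 16.27 in XY Het (log2 difference -2.97, SE 0.16, adjusted p = 1.25e-07 by limma).

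In the gene order of GRCm38.p6, the nearest promoters on 1 side of Tmem63a that passed the filter of RPKM 0.5 were those of Lefty1 and then Lefty2, and all 3 genes had more RNA in XY cells. Lefty1 and Lefty2 encode secreted antagonists of Nodal. Lefty1 had 1.09 RPKM of H3K27me3 in XX Het, 0.96 in XX KO, 0.27 in XY Het and 1.08 in XY KO. The XY Het library was the low one, and the XY KO library was as high as the XX libraries, so that the difference of 1.06 (adjusted p = 8.01e-07 by limma) consisted of 1.88 in the Het pair and 0.24 in the KO pair. Lefty2 was alike, with 1.02 and 0.73 RPKM in XX, 0.46 in XY Het and 0.91 in XY KO (1.21 and 0.13 in the pairs, adjusted p = 0.00821 by limma). After quantile normalization by limma, Lefty1 passed at the filter of RPKM 0.5 (adjusted p = 4.35e-05) but not at RPKM 1 (adjusted p = 0.309). At RPKM 1 it passed with centring (adjusted p = 0.00266), but not as deposited (adjusted p = 0.0702). Nor did it pass there with centring and no genotype term (adjusted p = 0.429). Lefty1 RNA was 0.00 to 0.43 RPKM in XX Het and 55.60 to 73.16 in XY Het, and Lefty2 RNA was 0.00 to 0.32 and 79.35 to 174.34 RPKM. In the XY KO libraries the RNA stayed high, at 61.82 and 73.48 RPKM for Lefty1 and 118.38 and 146.92 for Lefty2, beside the higher mark there. On the far side of Tmem63a the promoter of Ephx1 differed neither in the mark (0.08, adjusted p = 0.91) nor in RNA (0.01, adjusted p = 0.982) past the threshold.

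**Figure D3:**
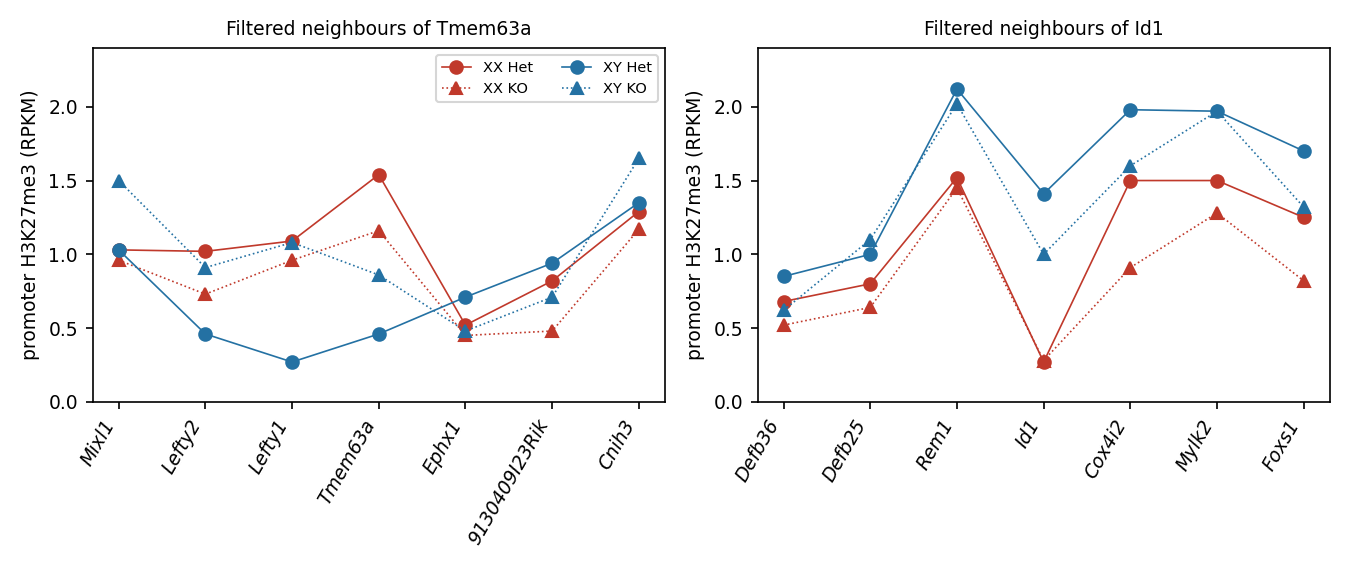
H3K27me3 (RPKM, y axis) at 7 promoters that passed the filter of RPKM 0.5, in chromosome order around Tmem63a (left) and Id1 (right), 1 point per library, with promoters under the filter left out. Around Tmem63a the XY Het library lies below the others at Lefty2, Lefty1 and Tmem63a (0.46, 0.27 and 0.46 RPKM). Around Id1 the sexes separate most widely at Id1 (0.27 and 0.28 against 1.41 and 1.00 RPKM), where the XX values drop below those of Rem1 and Cox4i2. Both XX libraries lie below both XY libraries at its plotted neighbours too, except Defb36. Rem1, for example, has 1.52 and 1.45 against 2.12 and 2.02 RPKM.

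Tdgf1, Nodal and Dll3 were also lowest in the XY Het library, as were Prdm14, Utf1 and Dppa3 described below. With 1 library per sex and genotype a difference between the genotype pairs could not be tested. At Tdgf1 and Nodal, unlike at Lefty1 and Lefty2, the KO library was above the Het library in XX cells too. Tdgf1 had 0.80 and 1.27 RPKM in XX Het and KO and 0.44 and 1.33 in XY Het and KO, with 0.94 in the Het pair and 0.34 in the KO pair (adjusted p = 0.00366 by limma for the fit), and the sexes overlapped. Its RNA was 0.00 to 0.26 RPKM in XX Het and 8.12 to 14.63 in XY Het. Nodal itself, the ligand, had 0.54 and 0.86 RPKM in XX and 0.31 and 0.95 in XY cells and did not pass (0.56, adjusted p = 0.0969), while its RNA was 0.20 to 2.14 RPKM in XX Het and 19.71 to 30.11 in XY Het. Dll3, a Notch ligand, was at 0.89 and 0.81 RPKM in XX, 0.42 in XY Het and 0.86 in XY KO (1.13 and 0.32 in the pairs, adjusted p = 0.0041), with RNA of 1.24 against 17.4 RPKM.

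At other promoters above the shift the genotypes were alike. Hesx1, a homeobox repressor gene, had 0.57 and 0.74 RPKM in XX and 0.29 and 0.45 in XY Het and KO, a difference of 1.00 in the Het pair and 1.01 in the KO pair. Hesx1 passed the filter through XX cells alone, and the difference is given with no p. Its RNA was 0.00 to 0.24 RPKM in XX Het and 43.89, 17.63, 18.17 and 17.33 in XY Het. Bcar3, an adaptor protein gene, had 0.98 and 0.73 against 0.52 and 0.44 RPKM (1.02, adjusted p = 3.51e-05, pairs 1.00 and 1.04), with RNA of 4.76 to 7.40 against 17.10 to 20.65 RPKM. Hlf, a bZIP factor gene, had 0.97 and 0.66 against 0.60 and 0.44 RPKM (0.85, adjusted p = 0.000998, pairs 0.81 and 0.90), with RNA of 0.60 against 5.39 RPKM.

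Some promoters above the shift carried the mark in all 4 libraries. Wnt3, a secreted ligand, had 2.02 and 1.64 RPKM in XX and 1.40 and 1.65 in XY Het and KO (0.55, adjusted p = 0.000117 by limma relative to the shift, and 0.25, adjusted p = 0.275, as deposited), with 0.70 in the Het pair and 0.39 in the KO pair and overlapping RPKM. Its RNA was 1.02 to 2.12 RPKM in XX Het and 20.19 to 31.23 in XY Het, so both the mark and the transcript were measured in XY cells. Wnt9b, its neighbour, did not pass (-0.04, adjusted p = 0.939). Pmaip1, a p53 target that promotes cell death, had 1.67 and 1.52 RPKM in XX and 1.45 and 1.46 in XY (0.42, adjusted p = 0.0118, pairs 0.39 and 0.46), which did not overlap but differed by 0.12 (adjusted p = 0.582) as deposited, with RNA of 0.26 to 0.96 against 43.58 to 154.36 RPKM. Epas1, which encodes a hypoxia factor, had 1.10 and 0.96 against 0.82 and 0.98 RPKM (0.48, adjusted p = 0.0417, pairs 0.58 and 0.38, and adjusted p = 0.0569 after quantile normalization), with RNA of 0.818 against 9.19 RPKM.

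**Figure D4:**
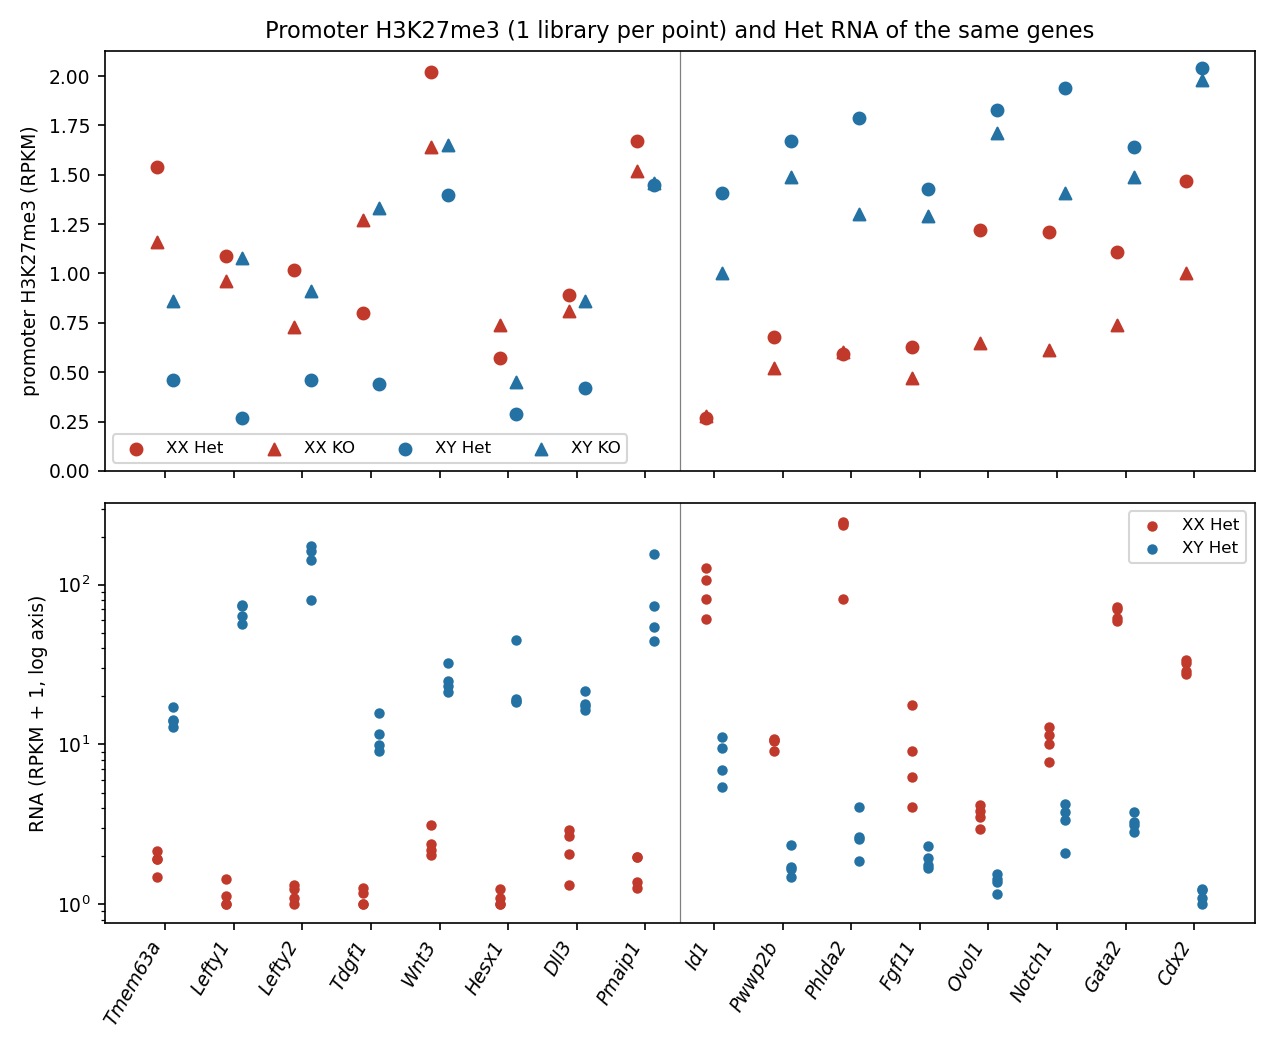
Promoter H3K27me3 of 16 genes (upper panel, RPKM, 1 point per library) and RNA of the same genes in the 4 XX Het and 4 XY Het libraries (lower panel, RPKM + 1, log axis). Genes left of the line stand above the median shift in XX cells, and at Lefty1, Lefty2, Tdgf1 and Dll3 the XY Het library (0.27, 0.46, 0.44 and 0.42 RPKM) is the low one. At the genes right of the line both XX libraries lie below both XY libraries.

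Gene lists were read by count and median beside all 6283 promoters tested, of which 1.35% stood above and 1.86% below the shift. Counts at the filter of RPKM 1, where 1.04% stood above and 0.767% below, are given beside them. Of 39 Hox genes all 39 were tested, with 1 above (Hoxa10, 0.39) and 2 below (Hoxa2, -0.45, and Hoxb9, -0.47), and a median of -0.12. At RPKM 1 they were 1 above and 0 below of 37. Their median level was 1.22 RPKM in XX and 1.76 in XY cells. Of 58 mesoderm and endoderm regulators tested 4 were below (Gata2, Hand1, Cdx2 and Alx4) and 0 above, with a median of 0.00, but 0 of 53 were called at RPKM 1, and Gata2 and Cdx2 did not pass after quantile normalization. Of 83 neural regulators 1 was below (Irx5), with a median of -0.04, and 0 of 77 were called at RPKM 1. Irx5 did not pass after quantile normalization (adjusted p = 0.1). Of 51 ligands and antagonists 1 was above (Wnt3) and 3 below (Wnt5a, Fgf11 and Chrd), with a median of -0.13, and at RPKM 1 Wnt3 was above and Fgf11 below of 40. RNA of Wnt5a (adjusted p = 0.112) and Chrd (adjusted p = 0.488) did not pass.

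The lists of sex-specific germ cell genes were small. Of 10 BMP target genes tested 3 were below the shift (Id1, Gata2 and Cdx2) and 0 above, with a median of -0.29. At RPKM 1, 0 of 7 were called, the wider filter was added with Id1 in view, and Gata2 and Cdx2 did not pass after quantile normalization. In RNA, 13 of 17 listed genes tested had more RNA in XX Het and 1 less. Of 25 male fate and Nodal genes tested 4 were above (Lefty1, Lefty2, Tdgf1 and Cdkn2b) and 1 below (Ctcfl), with a median of 0.05, and at RPKM 1 Lefty1 and Tdgf1 were above of 12. Cdkn2b (adjusted p = 0.0507) and Ctcfl (adjusted p = 0.129) did not pass after quantile normalization. Of 20 meiosis genes tested 0 passed in either direction, nor any of 7 at RPKM 1, with a median of -0.03, although 31 of 49 had more RNA in XX Het and 1 less. Most meiosis promoters carried little mark, 0.37 RPKM in XX and 0.36 in XY cells at the median gene. Stra8, needed to start meiosis, had 0.57 and 0.59 RPKM in XX and 1.15 and 0.85 in XY Het and KO, groups that did not overlap, and a difference of -0.38 that did not pass (adjusted p = 0.254 by limma), with RNA of 73.35 to 322.76 against 0.00 to 2.30 RPKM. Sycp3, of the chromosome axis, had 0.59 and 0.50 against 0.61 and 0.66 RPKM.

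Pluripotency genes included 2 of 12 tested promoters above the shift and 0 below, with a median of 0.12, and at RPKM 1 Prdm14 was above of 5. Prdm14 had 0.67 and 1.12 RPKM in XX and 0.43 and 1.03 in XY Het and KO (adjusted p = 0.0172), and Utf1 had 0.71 and 0.92 against 0.46 and 0.85 RPKM (adjusted p = 0.0264). In both genes the values overlapped between the sexes, and the KO library was higher than the Het library in each sex. Neither passed after quantile normalization (adjusted p = 0.0536 and 0.0656). Dppa3, an oocyte and germ cell factor, had 0.43 and 0.69 against 0.21 and 0.59 RPKM and did not pass after quantile normalization (adjusted p = 0.451). RNA of Prdm14, Utf1 and Dppa3 was lower in XX Het, by -0.93, -1.77 and -1.68 on the log2 scale. Among 8 cell cycle genes tested Cdkn2a (0.72) and Cdkn2b (0.67), inhibitors of cyclin-dependent kinases at 1 locus, were above and Ccnd1 below, while 0 of 3 were called at RPKM 1. RNA of Cdkn2a (adjusted p = 0.513) and Cdkn2b (adjusted p = 0.425) did not pass. Of 25 housekeeping genes 3 passed the filter and 0 were called.

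Among promoters called for the mark whose RNA was also called, 60 differed in the opposite direction in mark and RNA and 1 in the same direction, while 69 called promoters had RNA that did not pass and 72 had RNA that was not tested. In RNA, 2141 of 12739 autosomal genes tested (16.8%) were higher in XX Het and 1904 (14.9%) were lower by limma, and 1750 and 2360 after median centring of the libraries. Of the 724 genes with more RNA in XX Het and a tested promoter, 37 had less mark in XX and 0 had more, relative to the shift. Of the 280 genes with less RNA in XX Het, 23 had more mark and 1 had less. Of the 1825 genes whose RNA did not pass, 21 had more mark and 48 less, and of the 3454 whose RNA was not tested, 41 had more and 31 less. Mtx1, a gene of mitochondrial protein import, was the exception, with 0.44 and 0.26 against 1.16 and 0.72 RPKM of the mark and RNA of 13.1 against 19.1 RPKM; it passed the filter through XY cells alone. At the filter of RPKM 1, 9 of 247 genes with more RNA in XX had less mark and 0 more, and 8 of 89 genes with less RNA had more mark and 0 less.

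Most promoters of genes that differed in RNA did not differ in the mark past the threshold. Of the 45 genes tested for the mark with RNA 4-fold or more higher in XX Het, 9 had less mark and 0 more, and their median was -0.23. Of the 40 with RNA 4-fold or more lower, 10 had more mark and 0 less, and their median was 0.24. Across 2829 genes Pearson's r between the differences in mark and in RNA was -0.349 and Spearman's rho -0.316, a description across genes, which are not independent replicates and share the libraries. The mark did not reach the filter of RPKM 0.5 at 66.2% of the genes with more RNA in XX Het (1417 of 2141) and at 85.3% of those with less (1624 of 1904).

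**Figure D5:**
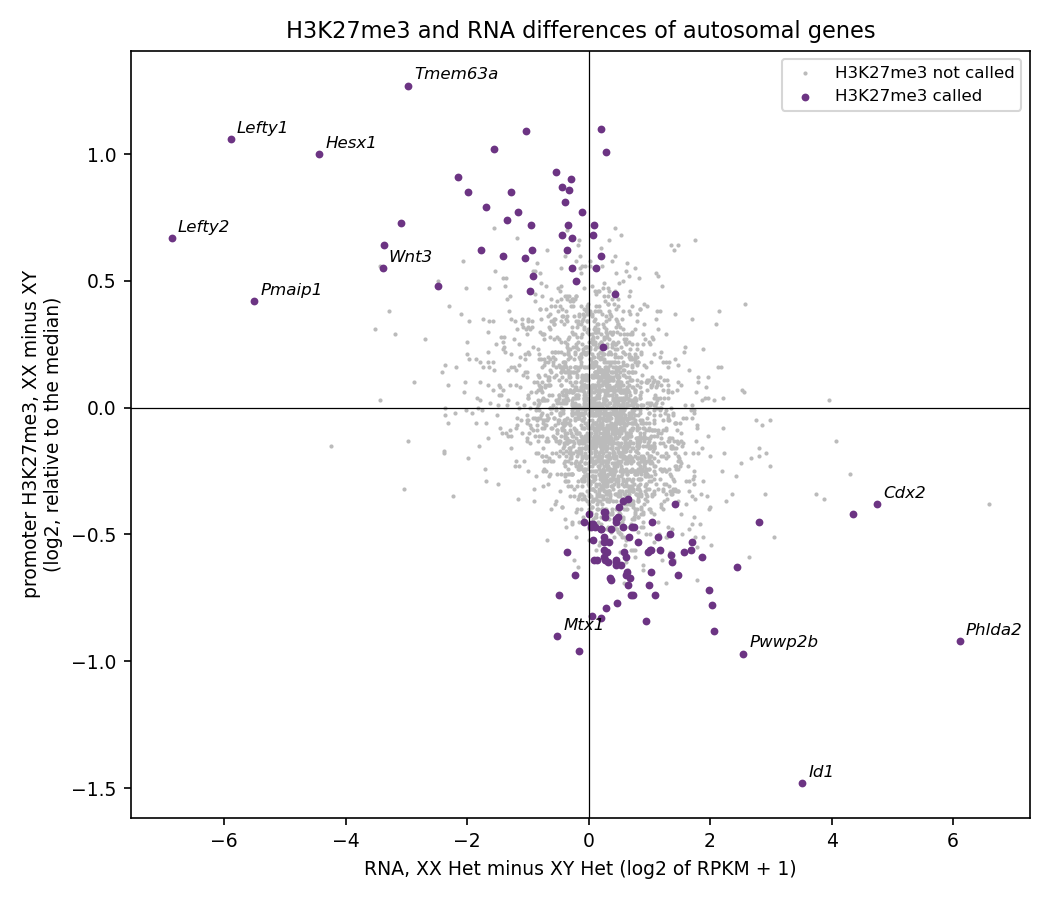
XX minus XY difference of promoter H3K27me3 relative to the median shift (y axis, log2) against the XX Het minus XY Het difference of RNA (x axis, log2 of RPKM + 1) for 2829 autosomal genes. Called promoters lie in the upper left (23 genes with less RNA) and lower right (37 genes with more RNA) or near an RNA difference of 0, with Mtx1 in the lower left.

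H3K9me3 was measured in the same 4 kinds of germ cells, again with 1 library each, and was tested in the same way. Of 227 autosomal promoters tested 0 passed in either direction by limma, with 15 at an unadjusted p under 0.05, and 2 (0.881%) were lower in XX after median centring. These were Cdx2, with 0.37 and 0.45 RPKM of H3K9me3 in XX Het and KO and 1.30 and 1.15 in XY, and 1600029O15Rik. Cdx2 passed the filter of RPKM 1 through XY cells alone, so its call depends on the filter. At Tmem63a H3K9me3 was 0.51 and 0.28 RPKM in XX and 0.07 and 0.11 in XY cells, and at Id1 0.17 and 0.10 against 0.62 and 0.25, in the direction of H3K27me3 at both but under the filter and not tested.

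The X chromosome was kept apart because the sexes differ in its dose and because 1 X is silenced in XX somatic cells with H3K27me3. Of 886 X-linked promoters, 354 passed the filter of RPKM 0.5, of which 345 (97.5%) stood above the autosomal shift in XX cells and 1 below. The filter favoured promoters high in XX cells, since the median X-linked promoter stood near 0.5 RPKM in XX cells only. Drp2, with 0.71 and 0.67 RPKM in XX and 0.27 and 0.24 in XY, is an example that entered through XX cells alone. The share called is therefore in part set by the filter. The median X-linked promoter had 0.493 and 0.503 RPKM in XX Het and KO and 0.130 and 0.116 in XY. The autosomal median was 0.288 and 0.260 RPKM in XX Het and KO and 0.263 and 0.258 in XY.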

How the data were processed

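The deposited promoter and gene tables give RPKM made by the authors, per the file headers. The submitters' processing notes name mm9 as the build, BWA as the aligner and SAMtools for RNA. Versions, counting method and total depth: not given in the sources used here. The RPKM had no fixed step from which whole reads could be recovered, so depth is unknown and no count test was run.

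Chromosomes were assigned by gene name from the RefSeq annotation of GRCm38.p6, by the current symbol of the Ensembl identifier (19777 genes), the name in the file (1033) or a single synonym (515), and 813 of 22138 had none. Values were taken as log2(RPKM + 0.1) for ChIP and log2(RPKM + 1) for RNA. Genes or promoters reaching RPKM 1 in 2 or more libraries were fitted with limma 3.58.1 (eBayes with trend, R 4.3.3), two-sided, with Benjamini-Hochberg adjustment over all features tested, X and Y included. ChIP fits used 4 libraries with genotype as a block, which leaves 1 residual degree of freedom. The RNA fit used 12 libraries in 4 groups, with Het1 and Het2 pooled. In data simulated for the H3K27me3 comparison over 2336 promoters, 84% of 1.5-fold and 100% of 2-fold changes were recovered, and 0.468% of unchanged promoters were called. The simulated data had the same noise at every promoter and no overall shift between the sexes. These rates therefore do not carry over to the test of deposited RPKM, where the median shift was -0.39. Alternatives were pseudocounts, filters, centring on the median or on the 1000 most marked promoters, quantile normalization, leaving out the genotype term, and leaving out each library. Genes to be named were those called and 2-fold different in both genotypes, and listed genes meeting that rule or called in RNA. The members and gene lists were chosen with earlier results of these data known.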

Additional observations from a re-analysis of the deposited data

Results flagged for a closer look

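Among the genes named above, 79 groups of 4 Het libraries were tested for a library far from the other 3, and chance flags about 1 in 20. The gap of the outlying library, as a share of the range of its group, was 0.855 for Pwwp2b RNA in XX Het (lowest 8.05 RPKM in Het2 replicate 1) and 0.936 for Phlda2 RNA in XX Het (80.14 RPKM in the same library). It was 0.916 for Cdkn2a RNA in XX Het, with 26.29 RPKM in that library against 8.41 to 9.92 in the others. It was 0.968 for Hesx1 (43.89 RPKM), 0.9 for Stra8 (2.30 RPKM) and 0.897 for Sycp3 (38.72 RPKM) RNA in XY Het, each high in Het1 replicate 1. It was 0.832 for Wnt5a RNA in XY Het, lowest in Het1 replicate 2 at 0.86 RPKM. The sex differences of RNA called for Pwwp2b, Phlda2, Hesx1, Stra8 and Sycp3 had no overlap between the sexes.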

How the results depend on the processing

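Counts of promoters with H3K27me3 higher and lower in XX were 1 and 486 as deposited. They were 2 and 625 with a pseudocount of 0.5, 2 and 708 with 1, 0 and 0 with no filter, 23 and 17 with median centring, 34 and 31 with centring on the most marked promoters, 1 and 2 with quantile normalization, 1 and 298 with no genotype term, and 1 and 444 with autosomal promoters alone in the fit. Leaving out 1 library gave 0 to 1 higher and 0 to 1323 lower. Chosen after the data were seen, the filter at RPKM 0.5 gave 7 and 827, with median centring 85 and 117, and with quantile normalization 38 and 138, of which 122 were also called with centring. Centring without the genotype term gave 4 and 3, and centring without XY Het, XY KO, XX Het or XX KO 5 and 1, 13 and 2, 2 and 3, and 0 and 0. The 2-fold rule met by 0 and 2 promoters became 0 and 110 at 1.5-fold and 0 and 0 at 3-fold. Pwwp2b, Fgf11, Phlda2, Ovol1, Notch1 and Tmem63a kept their direction in all 20 alternatives each, but passed in 14, 11, 11, 10, 10 and 14 of them. H3K9me3 gave 0 and 0 throughout, except 0 and 2 with median centring. RNA counts of 2141 and 1904 became 638 and 681 with Het2 alone, which has 2 libraries per sex. The replicate block gave 2626 and 2411, but same-numbered libraries did not pair (correlations of deviations 0.00445, 0.285, -0.00999 and 0.226). Leaving out 1 RNA library gave 1613 to 2043 and 1380 to 2073. The count test planned for whole reads was not run. With 1 ChIP library per sex and genotype, and unknown depth, counting error of a promoter cannot be given.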
